A study of Mus musculus with 6 samples.

Results

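The insulin-like growth factor (IGF) system was followed through 10 genes, chosen by name, of the 31053 genes counted in each of 6 single-cell libraries of the developing mouse lung. These were the ligands Igf1 and Igf2, the receptors Igf1r and Igf2r, and the binding proteins Igfbp2, Igfbp3, Igfbp4, Igfbp5, Igfbp6 and Igfbp7. All 10 were present in every count matrix. Levels were read in endothelial cells, defined by at least 2 transcripts of Pecam1 plus Cdh5, in mesenchymal cells, defined by at least 5 transcripts of Col1a1 plus Col3a1, and, in whole lungs, also in epithelial and immune cells, each defined by at least 2 transcripts of Epcam plus Cdh1 or of Ptprc plus Laptm5.

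IGF1 and IGF2 are secreted growth factors that signal through the tyrosine kinase receptor IGF1R and, by way of PI3K and AKT, promote growth and survival. IGF2R, which is also the cation-independent mannose-6-phosphate receptor, takes up IGF2 for degradation rather than signalling. The binding proteins IGFBP2 to IGFBP6 hold the ligands with high affinity outside the cell, where they can withhold or deliver them, while IGFBP7 binds IGFs weakly and is deposited around vessels. Igf2 and Igf2r are imprinted in the mouse, and IGF signalling through Igf1r is needed for normal growth of the fetal lung.

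The study profiled cells carrying a DsRed reporter in the Cxcl12 gene, which encodes a chemokine made by lung endothelium. In 4 sorted libraries, made at embryonic days 13.5, 15.5 and 18.5 (E) and on day 8 after birth (P8), the mice were Cxcl12DsRed/+ and the gate kept DsRed+, CD31+, EpCAM- and CD45- cells, although reporter-positive CD31- mesenchyme was also collected according to the methods. The other 2 libraries held all cells of E18.5 lungs, 1 labelled Cxcl12DsRed/DsRed (homozygous null) and 1 labelled Cxcl12DsRed/+ (heterozygous control). Every mouse thus carried at least 1 copy of the knock-in, which is active in every cell that uses the Cxcl12 promoter, and each library pooled the lungs of several animals. Each group was 1 library, so there is no spread between replicates, no test was made, and the 95% intervals given (exact Poisson for levels, exact Clopper-Pearson for shares of cells) cover counting error only.

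The whole-lung labels went against the targeted gene. Levels are in CPM, a gene's transcripts (unique molecular identifiers, UMIs) scaled to a common total per class or library. Cxcl12 stood at 190.6 CPM in the library labelled null and at 1.27 in the library labelled control, and in endothelial cells at 572 and 5.32. The names of the deposited matrices also give the genotypes the other way round. The library labelled control was male only, with Xist at 0.119 and Ddx3y at 74.3 CPM, whereas the library labelled null held both sexes, with Xist at 758 and Ddx3y at 35.4. Genotype, sex and library therefore cannot be told apart, and the whole-lung libraries are called by their labels throughout. In the sorted libraries Cxcl12 stood at 264, 636, 1158 and 1106 CPM from E13.5 to P8, and the P8 library held no Ddx3y UMI. After filtering, 7448 to 12726 cells per library remained, with a median of 5647 to 9042 UMIs. The E13.5 sort was almost wholly mesenchymal, with 11253 mesenchymal and 166 endothelial cells, while the P8 sort held 8220 endothelial and 68 mesenchymal cells. At most 50 cell barcodes were shared by any pair of libraries. Endothelial markers outside the rule (Tie1, Kdr, Cldn5, Egfl7 and Esam) summed to 3402 to 8365 CPM in endothelial cells and to at most 113 in mesenchymal cells.

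The members lie on 7 chromosomes in the mouse assembly GRCm38 (GENCODE vM21 gene models). Igfbp2 (chr1:72824503-72852474, + strand) and Igfbp5 (chr1:72857932-72874884, - strand) are tail-to-tail neighbours 5.46 kb apart, and Igfbp3 (chr11:7206086-7213923, - strand) lies 3.54 kb from Igfbp1. Igfbp4 is at chr11:99041244-99054392 (+), Igfbp6 at chr15:102144362-102149511 (+), Igfbp7 at chr5:77349240-77408041 (-), Igf1 at chr10:87858265-87937042 (+), Igf1r at chr7:67952827-68233668 (+) and Igf2r at chr17:12682406-12769664 (-). Igf2 (chr7:142650766-142666816, - strand), 72.6 kb from H19, shares 3596 exon bases on the same strand with the read-through model Gm49394 (chr7:142650769-142669942), including 297 of its last 300 exon bases. The counting program assigns a read only if it matches a single gene, and Gm49394 had at most 1 UMI in any class of at least 50 cells. Reads from the shared bases would thus be left out, so Igf2 levels are uncertain and are given only as counted. Igfbp7 shares 85 exon bases at its 3′ end with Polr2b on the opposite strand, and Polr2b stood at 20.2 to 38.7 CPM in these classes. Igf1 and Igf2r share no exon bases with the antisense genes Igf1os and Airn, which run across their 5′ ends.

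The sequences just upstream of Igfbp2 and Igfbp7 are shown because these binding proteins went in opposite directions over the endothelial time course. Each run gives the 250 bases before the transcription start in RefSeq (GRCm38.p6), 5′ to 3′ on the strand of the gene, at chr1:72824230-72824479 (+) for Igfbp2 and at chr5:77408046-77408295 (-) for Igfbp7. Capitals mark matches to the GC box GGGCGG on either strand (CCGCCC on the reverse).
Igfbp2: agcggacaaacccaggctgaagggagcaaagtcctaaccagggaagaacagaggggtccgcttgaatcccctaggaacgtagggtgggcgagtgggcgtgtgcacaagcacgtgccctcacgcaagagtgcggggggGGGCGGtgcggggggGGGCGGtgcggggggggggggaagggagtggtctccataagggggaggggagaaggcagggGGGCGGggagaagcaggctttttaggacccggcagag
Igfbp7: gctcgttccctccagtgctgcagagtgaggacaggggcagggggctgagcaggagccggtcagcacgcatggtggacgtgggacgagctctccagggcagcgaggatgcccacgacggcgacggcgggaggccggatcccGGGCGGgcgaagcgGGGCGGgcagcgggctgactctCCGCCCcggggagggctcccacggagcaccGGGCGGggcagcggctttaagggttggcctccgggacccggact
The GC box matched 3 times upstream of Igfbp2 and 4 times upstream of Igfbp7, and 32.7% of all 32851 such windows hold at least 1 match. Neither window held TATAAA (12.4% of all windows, either strand) or CCAAT (33.8%). Upstream of the other members, the GC box was found for Igf1r (2 matches) and Igf2r (3), TATAAA for Igfbp4 and Igfbp6, and CCAAT for Igf1 and Igfbp6. The G and C content of the 250 bases ran from 49.6% for Igfbp6 to 77.6% for Igf1r. These are matches of letters and not sites of binding.

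In sorted endothelial cells the binding proteins went in different directions with age. Igfbp2 was at 141 (95% interval 121 to 164), 93.0, 6.68 and 1.05 CPM at the 4 ages from E13.5 to P8, and was lower at every later age. Igfbp7 went the other way, with 93.9, 334, 717 and 2063 CPM at the same ages. Igfbp3, the main carrier of IGFs in adult blood, was at 22.8, 103, 65.9 and 3.73, so it was highest at E15.5 and nearly absent at P8. Igfbp4 was at 810.0, 764, 1471 and 702, highest at E18.5. All 166 endothelial cells at E13.5 lay in 1 cluster, named distal arterial EC-like below. Cells of that name at E15.5 were not lower in Igfbp2, so its first step is between unlike sets of cells.

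A difference was called where the log2 ratio of CPM plus 0.5 was at least 1 in size and at least 1 of the groups reached 10 CPM. From E13.5 to E15.5, 2 of the 9 members that reached this level were called, both higher at E15.5: Igfbp3 (log2 ratio 2.15, interval 1.63 to 2.78) and Igfbp7 (1.82, interval 1.56 to 2.11), against 6.47% of the 8364 genes compared (2.93% higher and 3.54% lower). From E15.5 to E18.5, 3 of 9 were called, against 13.9% of all genes compared (9.19% higher and 4.71% lower). Igfbp7 (1.10) and Igf1 (1.57) were higher at E18.5 and Igfbp2 (-3.70) was lower. The Igf1 call was lost when cells of several classes were assigned by priority (0.41), and the Igfbp7 call with median-of-ratios scaling (0.94) and with cycling cells left out (0.95). From E18.5 to P8, 5 of 7 were called, against 8.32% of all genes compared (4.26% higher and 4.07% lower). Igfbp7 (1.52) was higher at P8, and Igfbp3 (-3.97, 15.7-fold), Igf1 (-3.50), Igfbp4 (-1.07) and Igf2r (-1.04) were lower. Igfbp4 and Igf2r lay just past the limit of 1, and the Igf2r call was lost with 5 rather than 0.5 CPM added (-0.93). The median log2 ratio of the members that could be compared was -1.04 in this step, beside 0.03 over all genes compared. The E13.5 values rest on 166 cells, and Igf1 and Igfbp5, at 20.3 and 30.4 CPM there, are also called lower at E15.5 when classes are assigned by clusters (log2 ratios -2.09 and -1.94). The endothelial class also held unlike populations at these ages, by the names given below. Distal arterial EC-like cells numbered 1202 at E15.5 and 3182 at E18.5, and cycling-like cells 1539 and 590. Aerocyte capillary EC-like cells, 1245 at E18.5, were not named at E15.5. The part of this in the ratios was not tested.

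The endothelial ligand and receptor levels were as follows. Igf1 was at 20.3, 10.7, 32.8 and 2.44 CPM from E13.5 to P8, highest at E18.5 and lowest at P8. Igf2, as counted, was at 17.8, 13.4, 8.70 and 1.15, lower at each later age. Igf1r was at 53.3, 75.4, 125 and 76.8, and no step between ages passed 2-fold. Igf2r was at 49.0, 53.0, 56.9 and 27.4, flat across the embryonic ages and lower at P8. Igfbp5 was at 30.4, 21.9, 30.2 and 15.9, with no step past 2-fold. With cells of several classes assigned by priority, its log2 ratio was past 2-fold from E13.5 to E15.5 (-1.60) and from E18.5 to P8 (-1.07). With doubled marker limits it was also past 2-fold from E13.5 to E15.5 (-1.24). Igfbp6 gave 0, 25, 39 and 2 UMIs in all at the 4 ages, and the 0 at E13.5 allows up to 2.54 CPM at a floor of 3 counts.

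**Figure D1:**
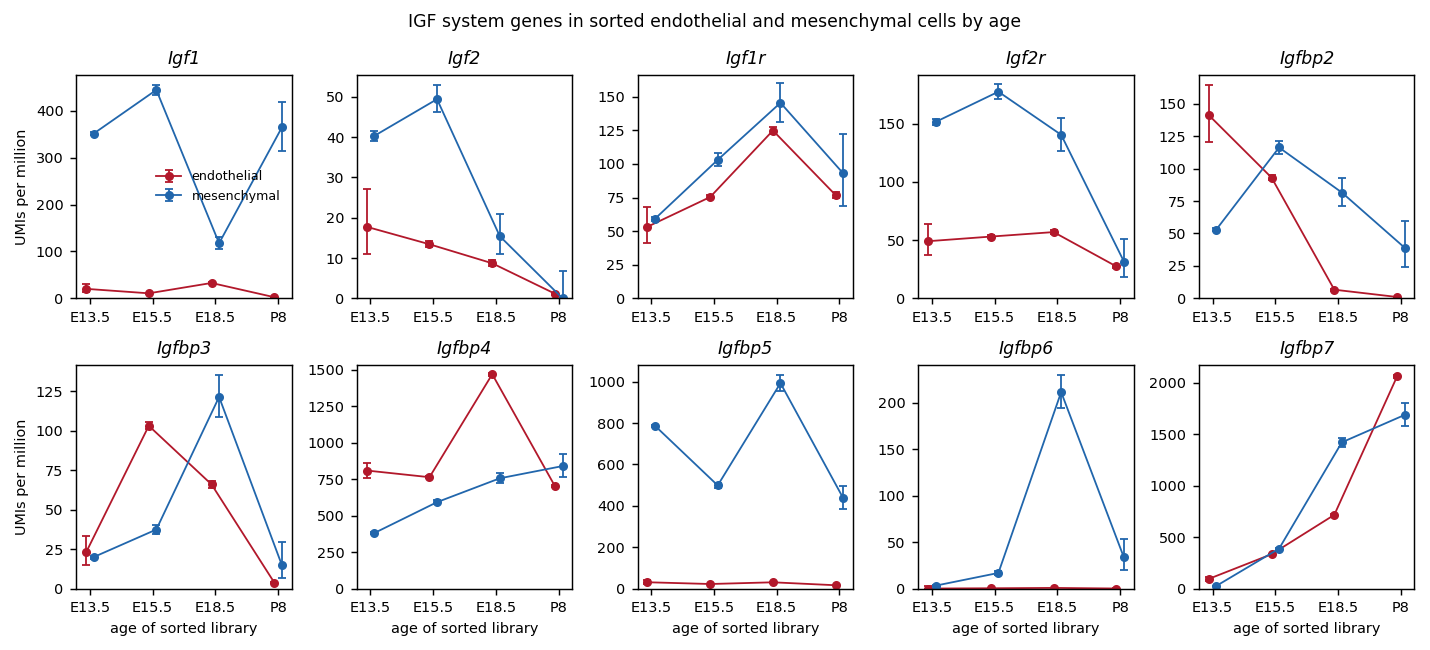
Levels of the 10 genes in CPM (y axis, from 0, scaled per gene) in endothelial (red) and mesenchymal (blue) cells of the 4 sorted libraries by age (x axis). Points are single libraries and bars 95% Poisson counting intervals. Endothelial Igfbp2 goes from 141 to 1.05 and Igfbp7 from 93.9 to 2063, while Igf1 and Igfbp5 lie far higher in mesenchymal than in endothelial cells.

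Among endothelial cells thinned to 2000 UMIs, the share with at least 1 UMI followed the order of the levels for Igfbp7, Igfbp2 and Igfbp4. Shallower cells could not be thinned and were left out (2, 19, 141 and 197 from E13.5 to P8). For Igfbp7 it was 17.1% (95% interval 11.7 to 23.7), 37.3%, 49.7% and 81.0% from the youngest to the oldest library. For Igfbp2 it was 20.7% (interval 14.8 to 27.7), 15.9%, 1.31% and 0.199%. For comparison, immune cells of the whole lungs at the same thinned depth had Igfbp2 in 0 and 0.159% of cells and Igfbp7 in 0.717% and 1.27%. The P8 share of Igfbp2 is near these values. They come from other libraries, and the P8 sort held too few immune cells (14) to measure its own background. Igfbp4 was found in 77.4%, 74.0%, 88.9% and 64.8% of endothelial cells.

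Mesenchymal RNA in endothelial droplets bears on some of these levels. Each of the mesenchymal markers Col1a2, Pdgfra, Pdgfrb, Dcn, Lum and Mfap4, which are outside the class rule, stood in E13.5 endothelial cells at 2.75% to 7.96% of its mesenchymal level in the same library. This range was 0.205% to 2.14% in the E15.5 sort, 0.0708% to 0.741% in the E18.5 sort and 0 to 0.724% in the P8 sort, where Dcn and Lum were at 0. Summed, the 6 markers gave 166 CPM in endothelial cells at E13.5 and 8.15 to 23.3 at the later ages. Endothelial Igf1 and Igfbp5 at E13.5 stood at 5.78% and 3.87% of their mesenchymal levels, inside the range of the markers. At E15.5 they stood at 2.41% and 4.39%, above it, and Igfbp6 at 1.73%, inside it. The upper end at E15.5 was Pdgfra alone, with the next marker, Pdgfrb, at 0.831%. The part of such RNA in these levels was not tested.

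In sorted mesenchymal cells, which could be compared only between E13.5 (11253 cells) and E15.5 (2058 cells), 3 of 10 members were called, all higher at E15.5, against 11.2% of the 8705 genes compared (6.88% higher and 4.27% lower). Igfbp7 was at 25.5 and 388 CPM (log2 ratio 3.90), Igfbp6 at 3.12 and 16.8 (2.26), and Igfbp2 at 53.0 and 116 (1.12). Igfbp2 was no longer past 2-fold with cycling cells left out (0.80), with thinned cells (0.87) or with the mean of single-cell levels (0.93). The class held unlike cells at the 2 ages: at E15.5 most lay in 3 clusters, led by Wisp2, Timp4 and Myh11 (888 cells, with smooth muscle and pericyte genes together), by Ren1 (690) and by Tbx20 (652), while at E13.5 they were spread over many more. These sizes count all cells of a cluster, and 745 of the 888 met the mesenchymal rule alone. The part of the unlike cells in the ratios was not tested. Igf1 was at 351 and 445, Igf2 at 40.3 and 49.4 as counted, and Igfbp5, the most matrix-bound of the binding proteins, at 787 and 499. Igf1r was at 59.2 and 103, Igf2r at 151 and 177, Igfbp3 at 19.9 and 37.4, and Igfbp4 at 381 and 593, all within 2-fold. Igfbp3 did pass 2-fold when classes came from clusters (1.24) and, barely, with median-of-ratios scaling (1.002). The few mesenchymal cells that passed the gate later (282 at E18.5 and 68 at P8) had Igfbp7 at 1422 and 1688, Igfbp5 at 993 and 437, Igf1 at 118 and 364, and Igfbp6 at 212 and 33.5. These are given as values only, since the gate selected against such cells. At E15.5, too, 8775 endothelial cells passed beside the 2058 mesenchymal ones, against 166 beside 11253 at E13.5. The libraries of the mesenchymal ratios thus differ in what the sort let through as well as in age. The part of this in the ratios was not tested.

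Igf1, Igfbp5 and Igfbp6 lay on the mesenchymal side. Igf1 was higher in mesenchyme in each of the 4 libraries compared, with log2 ratios of 4.08 at E13.5, 5.31 at E15.5, 2.32 in the whole lungs labelled control and 3.33 in those labelled null. Igfbp5 was higher by 4.67, 4.48, 3.81 and 4.60 on the log2 scale in the same order. Igfbp6 was higher by 4.45, 5.20 and 4.87 in the last 3 of these and could not be compared at E13.5. In the whole lungs the mesenchymal Igfbp6 came mostly from 1 cluster in each library, the clusters described below for Igfbp2, with 91.5% of its UMIs (labelled control) and 73.3% (labelled null). Without them Igfbp6 could no longer be called in the library labelled control, where neither class then reached 10 CPM (log2 ratio 1.94). Igf2r was higher in mesenchyme past 2-fold at E13.5 (1.62) and E15.5 (1.73) but not in the whole lungs (0.49 and 0.81, the latter at 1.01 with SoupX-adjusted counts, from which the authors removed free RNA). With those counts Igf1 was at 392 CPM in mesenchymal and 18.3 in endothelial cells (labelled control) and at 491 and 19.4 (labelled null). The classes were thus further apart in Igf1 than in raw counts. Igf1r was within 2-fold in all 4, at 0.15 to 0.45, so the IGF1 receptor was read at near-equal levels in both classes while its ligand was not.

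In all, 7 of 9 members were called at E13.5, 6 of 10 at E15.5, 5 of 9 in the whole lungs labelled control and 4 of 10 in those labelled null. The background of this contrast was high, at 24.8%, 25.6%, 31.3% and 30.4% of all genes compared (12.7%, 14.3%, 16.5% and 15.6% higher in mesenchyme and 12.1%, 11.3%, 14.8% and 14.8% lower). Igfbp4 was higher in endothelial cells past 2-fold at E13.5 (-1.09) and in the whole lungs labelled control (-1.09), and below the limit at E15.5 (-0.37) and in those labelled null (-0.69). Both calls lay near the limit and were lost under several alternatives, at E13.5 with ratios down to -0.88 and in the whole lungs down to -0.86, as was that of Igf2 at E13.5 (1.16, down to 0.78). In the whole lungs labelled null Igfbp4 reached -1.01 without the cluster led by Col7a1 that is described below. Igfbp7 was higher in endothelial cells at E13.5 (-1.86) and within 2-fold in the other 3 libraries, although in the whole lungs labelled control it reached -1.09 with SoupX-adjusted counts.

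For Igfbp2 and Igfbp3 the side with the higher level depended on the library. Igfbp2 was higher in endothelial cells at E13.5 (-1.40), near equal at E15.5 (0.32) and higher in mesenchyme in the whole lungs labelled null (2.26), while in those labelled control it was within 2-fold (0.61). Igfbp3 was near equal at E13.5 (-0.19), higher in endothelial cells at E15.5 (-1.45), and higher in mesenchyme in the whole lungs labelled control (1.71) but within 2-fold in those labelled null (0.82). The whole-lung values near the limit depended on the processing. In the library labelled control the Igfbp2 ratio was 2.84 with SoupX-adjusted counts and 1.57 with all deposited barcodes, both past 2-fold. In the library labelled null the Igfbp3 ratio was 1.04 with SoupX-adjusted counts, and the Igfbp2 ratio was -1.24 without the cluster led by Col7a1 that is described below. The sorted and whole-lung libraries differ in gate as well as age.

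Clusters of each library, made without the members among the genes that drive the clustering, placed these levels in named populations. Names ending in -like were given from marker lists, with the added condition, set after cluster names had been seen, that the median marker be found in at least 20% of the cluster's cells. Only cells that met the rule of their own class and no other were counted, in populations with at least 50 of them. At E13.5 all 166 endothelial cells fell in 1 cluster, named distal arterial EC-like. Among the named endothelial populations of the sorted libraries, Igfbp5 stood apart in proximal arterial EC-like cells, with 169.6, 817 and 102 CPM from E15.5 to P8. In the other named ones Igfbp5 was at most 27.5, 33.7 and 18.7 at these ages, but an unnamed E15.5 cluster of 73 endothelial cells, led by the heart muscle genes Actc1 and Nppa, had 905. Igfbp4 in proximal arterial EC-like cells was at 1060.5, 2271 and 3041, beside 1020.0, 2049.6 and 943 in distal arterial EC-like cells. The proximal arterial level of Igfbp4 was thus higher at P8 than at E18.5 although that of the whole endothelial class was lower. Among these named populations Igfbp7 was lowest in the proximal arterial EC-like cells, at 48.2, 26.5 and 366. The clusters of that name in the whole lungs, all cells counted, had Igfbp5 at 28.7 (labelled null) and 69.2 (labelled control). Their Igfbp7 was at 288 and 429. No distal arterial EC-like population was named in the whole lungs, so the name need not cover the same cells.

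Igfbp3 was highest in systemic-type capillary EC-like cells, at 481 CPM in the E15.5 and 617 in the E18.5 library, and was at 22.1 to 288 in the other endothelial populations of the latter. At P8 no endothelial cluster of at least 50 cells passed 5.21, but a cluster of 31 cells there, in which Fabp4 stood beside lymphatic genes such as Ccl21a and Mmrn1, was too small to be read. In the E13.5 distal arterial EC-like cluster, which held all 166 endothelial cells of that age, Igfbp2 was at 141. At E15.5 it was at 162 under the same name, so not lower, and at 109 in general capillary EC-like and 18.3 in proximal arterial EC-like cells. The general capillary EC-like cells joined a cluster with Igfbp2 at 123 and one, led by DNA replication genes such as Ung and Mcm5 beside Aplnr, with 86.7. Igfbp2 was also read over the 10 endothelial clusters with at least 50 cells, named or not. It ran from 18.3 to 162 at E15.5 and from 0 to 12.3 at E18.5, so the ranges did not overlap. The share of all genes whose ranges also did not overlap was not computed, so this cannot be called particular to Igfbp2. The clusters of each age are parts of the same library and are not replicates. Igfbp7 at E18.5 was at 2522 in systemic-type capillary EC-like, 1542 in aerocyte capillary EC-like and 746 in general capillary EC-like cells. At P8 it reached 4275 in aerocyte capillary EC-like cells, the Car4+ cells of the gas exchange surface, and 1283 in general capillary EC-like cells. Igf1 within the E18.5 endothelium was highest in lymphatic EC-like cells, at 324 (107 cells), and was at 50.1 in aerocyte and 40.6 in general capillary EC-like cells, against 4.73 in distal arterial EC-like cells. Igf1r spanned a narrow range there, from 79.9 to 153.

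**Figure D2:**
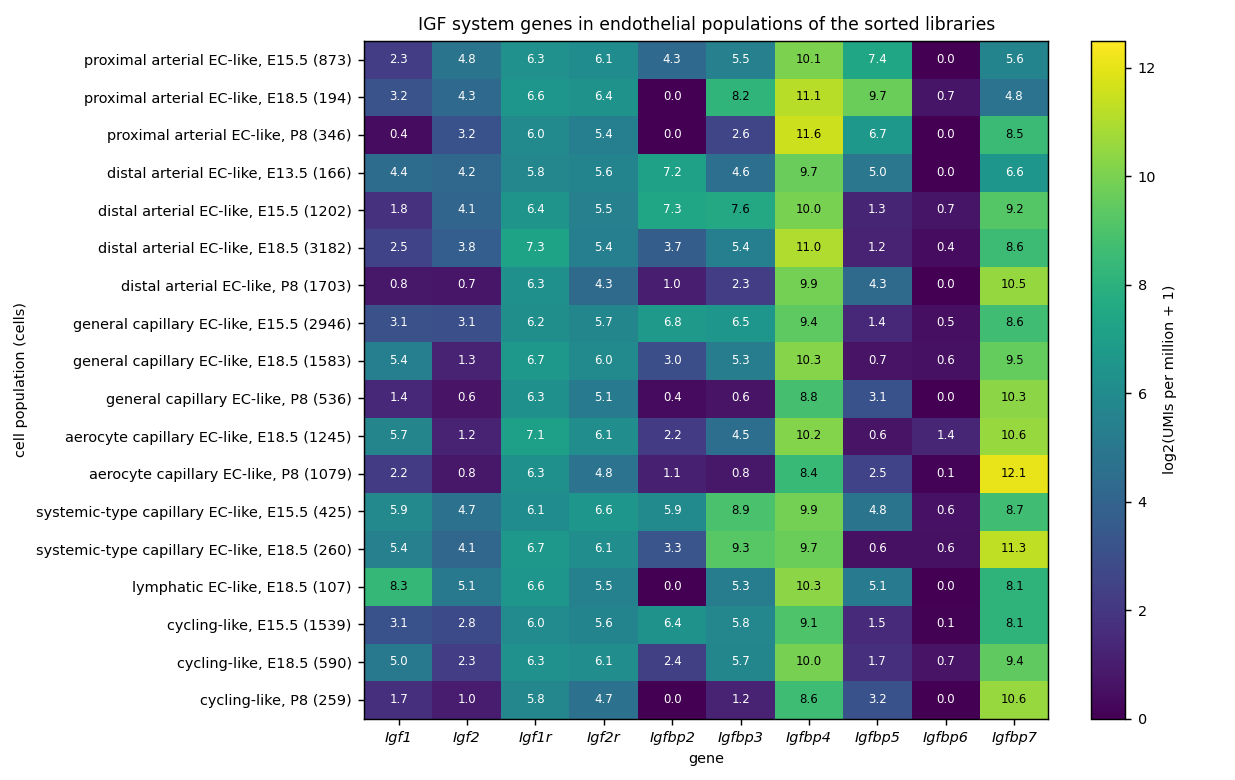
Levels of the 10 genes (columns) in named endothelial populations of the sorted libraries (rows, with age and number of cells that met the endothelial rule alone), as log2 of CPM plus 1. Igfbp5 stands out in the proximal arterial EC-like rows and Igfbp3 in the systemic-type capillary EC-like rows, Igfbp2 fades between E15.5 and E18.5 in each population found at both ages, and Igfbp7 reaches its highest value in aerocyte capillary EC-like cells at P8.

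The E13.5 mesenchyme already showed distinct sources of ligand and binding proteins. Igf1 was at 1035 CPM in smooth muscle-like and 771 in adventitial fibroblast-like cells, against 47.6 in alveolar fibroblast-like and 63.1 in pericyte-like cells. Igfbp5 was at 1697 in adventitial fibroblast-like, 821 in pericyte-like and 273 in smooth muscle-like cells. Igfbp6 reached 19.99 in adventitial fibroblast-like cells and stayed below 1 in the other named mesenchymal populations.

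In the whole E18.5 lungs the members were spread differently over the classes. The class with the highest level was the same in both libraries for 8 of the 10 members, but not for Igfbp2 (mesenchyme at 126 in the library labelled null, epithelium at 44.5 in that labelled control) or Igfbp7. In the library labelled null Igfbp7 was level between mesenchyme (718) and endothelium (705), while in that labelled control endothelium was highest (944). Without the Col7a1 cluster of the library labelled null, singled out for its Igfbp2 UMIs, mesenchyme there was at 10.7 for Igfbp2 and 492 for Igfbp7. Igf1 was at 433 (labelled null) and 279 (labelled control) CPM in mesenchymal, 60.9 and 48.4 in immune, 42.5 and 55.3 in endothelial and 1.14 and 1.59 in epithelial cells. In the SoupX-adjusted values endothelial Igf1 was 19.4 and 18.3, so the order of the libraries in endothelium turned. The unnamed mesenchymal clusters led by Lnx1, Gdf10 and Col6a4 had Igf1 at 1073 and 662 and gave 49.5% and 60.9% of the mesenchymal Igf1 UMIs. Smooth muscle-like cells had Igf1 at 1147 and 1197, and macrophage-like cells at 388 and 270.1. About 1 in every 2 cells of the macrophage-like clusters (107 of 206 and 94 of 190) met several class rules and was left out of these values. Igfbp6 was highest in epithelial cells, at 150.4 and 159, where AT1-like cells, the flat cells of the air sacs, had 591 and 474 and AT2-like cells, which make surfactant, 147 and 132. Igfbp5 in epithelium was at 209 and 158 and in ciliated-like cells at 684 and 419. Igfbp2 in ciliated-like cells was at 241 and 109, against 23.4 and 40.5 in airway secretory-like cells. Igfbp7 was at 1076 and 992 in AT1-like cells and 175 and 130.1 in AT2-like cells.

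Igfbp4 was high in endothelium (1066 and 1012), mesenchyme (659 and 477) and macrophage-like cells (745 and 480.4), and was at 13.8 and 8.98 in epithelium, where the SoupX-adjusted values were 0. Igf2r was at 136 and 160.2 in mesenchyme and highest in alveolar fibroblast-like (235 and 284) and pericyte-like cells (233 and 289), against 38.8 and 68.5 in smooth muscle-like cells. Igf1r was found in every class, at 132 and 154 in mesenchymal, 109 and 129.5 in endothelial, 66.6 and 72.4 in epithelial and 14.6 and 15.8 in immune cells (6.84 and 4.81 after SoupX adjustment). Igf2 as counted was at most 11.2 in any class. Immune cells had under 10 CPM of Igf2, Igf2r, Igfbp2, Igfbp3, Igfbp5, Igfbp6 and Igfbp7 in both libraries. In the endothelial cells of the whole lungs Igfbp5 stood at 3.87% (labelled null) and 6.77% (labelled control) of its mesenchymal level, and Igfbp6 at 2.60% and 1.47%. The mesenchymal markers ran from 0.814% to 3.14% and from 0.705% to 7.74%. Both upper ends were Lum, at 32.1 and 8.35 CPM in mesenchyme, and the other markers reached at most 1.16% and 1.92%. In the SoupX-adjusted values endothelial Igfbp5 was at 5.75 and 6.83 CPM and Igfbp6 at 0.0152 and 0. The part of free RNA in these levels was not tested.

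**Figure D3:**
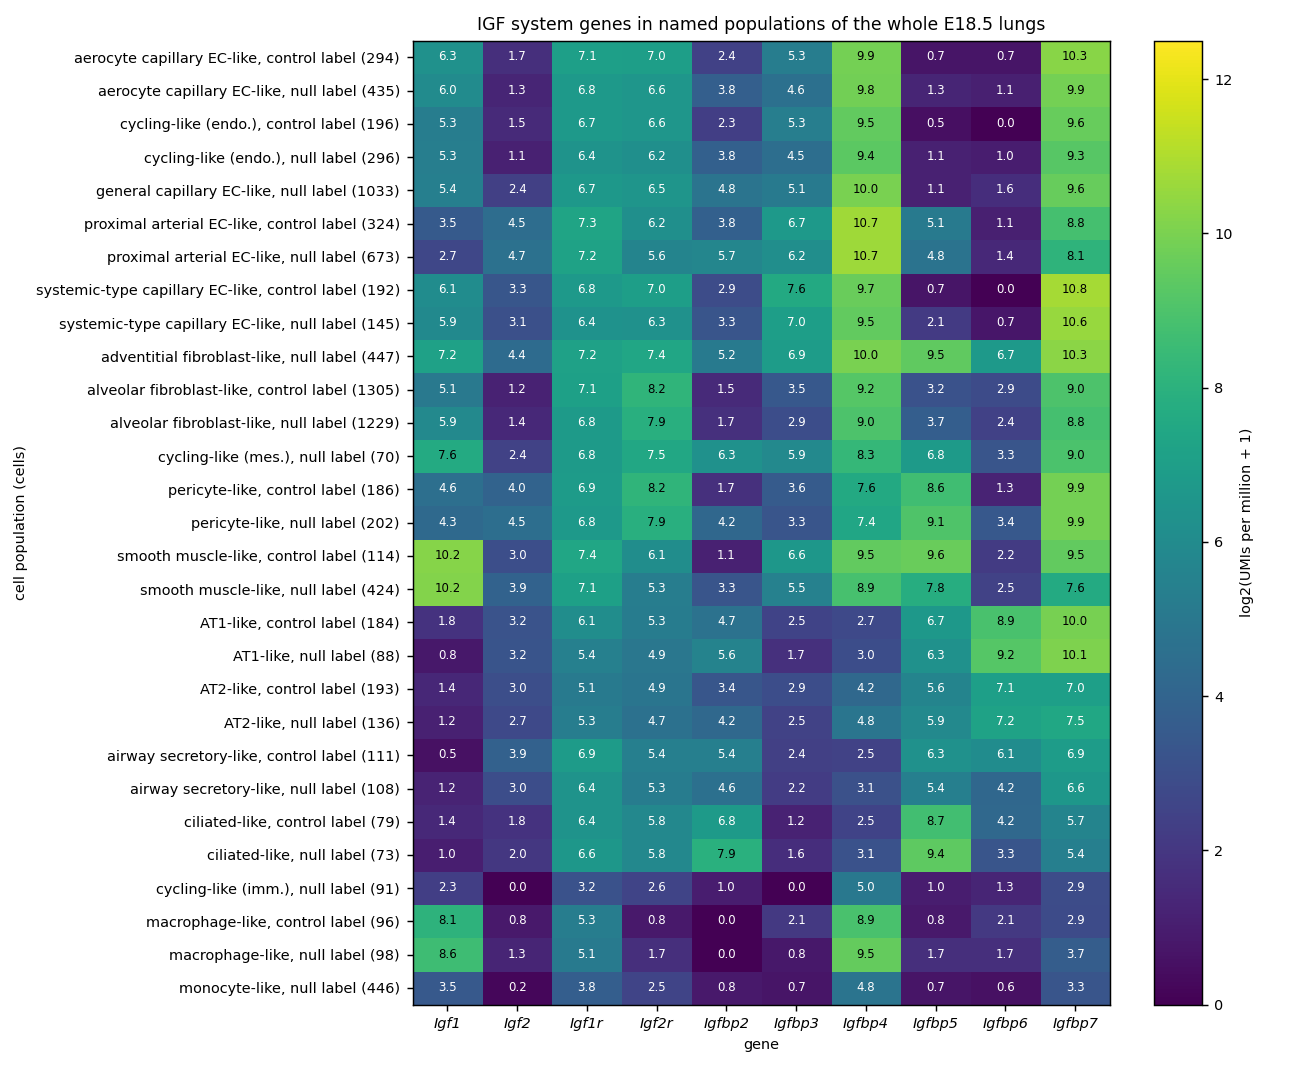
Levels of the 10 genes (columns) in named populations of the whole E18.5 lungs (rows, with the library's label and number of cells that met the rule of their class alone), as log2 of CPM plus 1. Among the populations plotted Igf1 is highest in smooth muscle-like cells, next in macrophage-like cells (unnamed clusters are not plotted), and Igfbp6 is highest in AT1-like cells at 591 and 474 CPM.

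Between the whole-lung libraries few members differed. Of the members that could be compared, 1 of 7 was called in endothelial cells, 2 of 10 in mesenchymal, 0 of 7 in epithelial and 0 of 3 in immune cells, against 0.53%, 1.06%, 0.506% and 1.46% of all genes compared. By direction the background was 0.265% higher and 0.265% lower in endothelial cells, 0.733% and 0.326% in mesenchymal, 0.373% and 0.132% in epithelial and 1.22% and 0.242% in immune cells. In endothelial cells Igfbp2 was at 26.0 (interval 24.1 to 28.1) in the library labelled null and 7.18 (5.84 to 8.73) in the library labelled control, a log2 ratio of 1.79. In the SoupX-adjusted values it was at 20.8 and 1.77, further apart. Igfbp2 in the sorted E18.5 endothelial cells, from Cxcl12DsRed/+ lungs, was at 6.68 in raw counts. Those cells passed a DsRed gate that the whole lungs did not, so this value is no reference for either label. In mesenchymal cells Igfbp2 was at 126 and 11.2 (log2 ratio 3.44, interval 3.33 to 3.66) and Igfbp3 at 77.0 and 243 (-1.65, interval -1.72 to -1.60). Since Cxcl12 goes against the labels, the direction of each holds for the libraries as labelled and not for a genotype, and with 1 library each neither can be set against the spread between animals.

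Most mesenchymal Igfbp2 UMIs came from few cells. In the library labelled null, 92.7% of mesenchymal Igfbp2 UMIs came from a cluster of 665 cells that was led by Col7a1, Stc2 and Osr2, was given no name and held 14.7% of the mesenchymal cells. In the library labelled control, 90.6% came from a cluster of 312 cells, led by Upk3b, Agtr2 and Efemp1, that held 8.09%. Each was the other's best match by whole profile (r = 0.85) among 16 such pairs, but none of their 10 leading genes was shared. Igfbp2 stood at 810.4 and 129 CPM in them, with all cells of a cluster counted here and in the other matched pairs. In the matched pericyte-like cells it was at 14.6 and 1.71, and in the matched cycling-like mesenchymal cells (85 and 55 cells) at 129.8 and 0. Without the Col7a1 cluster, mesenchymal Igfbp2 in the library labelled null was 10.7, beside 11.2 in the other library, and the log2 ratio went to -0.061. Without both clusters it was 2.77, but these need not be the same cells. Of the 366 Igfbp2 UMIs then left in the library labelled null, 168 came from an adventitial fibroblast-like cluster. No population of that name was found in the library labelled control. The fall without the Col7a1 cluster was fixed by the choice, since that cluster held most of these UMIs and the other library kept its own. In each of 4 matched pairs of endothelial clusters Igfbp2 was past 2-fold higher in the library labelled null, with log2 ratios of up to 1.93. Immune cells had 0.718 and 0.236. All matched pairs, here and below, are parts of the same 2 libraries and are not replicates. The share of all genes past 2-fold within pairs was not computed.

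The mesenchymal Igfbp3 difference lay in clusters that matched well. In the pair led by Lnx1, Gdf10 and Col6a4 (profile r = 0.96), Igfbp3 was at 160.2 in the library labelled null and 565 in the library labelled control. In the pair led by Cpne7, Stc1 and Vsnl1 (r = 0.92) it was at 79.3 and 466. In alveolar fibroblast-like cells it was at 7.38 and 11.8, and in pericyte-like cells at 13.6 and 11.6. The Col7a1 cluster and its match went the other way, at 120.9 and 86.2, within 2-fold. All 4 endothelial pairs were lower in the library labelled null, by -1.12 to -0.65 on the log2 scale, and 1 of them passed 2-fold. For the endothelial class Igfbp3 was at 43.4 (labelled null) and 73.9 (labelled control), but at 40.7 and 44.1 in the SoupX-adjusted values, whereas mesenchyme stayed apart there (84.4 and 352). In matched clusters of other classes, cells of several class rules included, Igfbp3 was at 19.7 (labelled null) and 91.2 (labelled control) in macrophage-like, 2.21 and 15.3 in ciliated-like, 4.74 and 12.6 in AT1-like and 12.3 and 10.9 in AT2-like cells, so most but not all were lower in the library labelled null. The part of free RNA in the endothelial difference was not tested beyond this. Igf1 was higher in the library labelled null in 5 of 6 mesenchymal pairs and past 2-fold in 1.

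**Figure D4:**
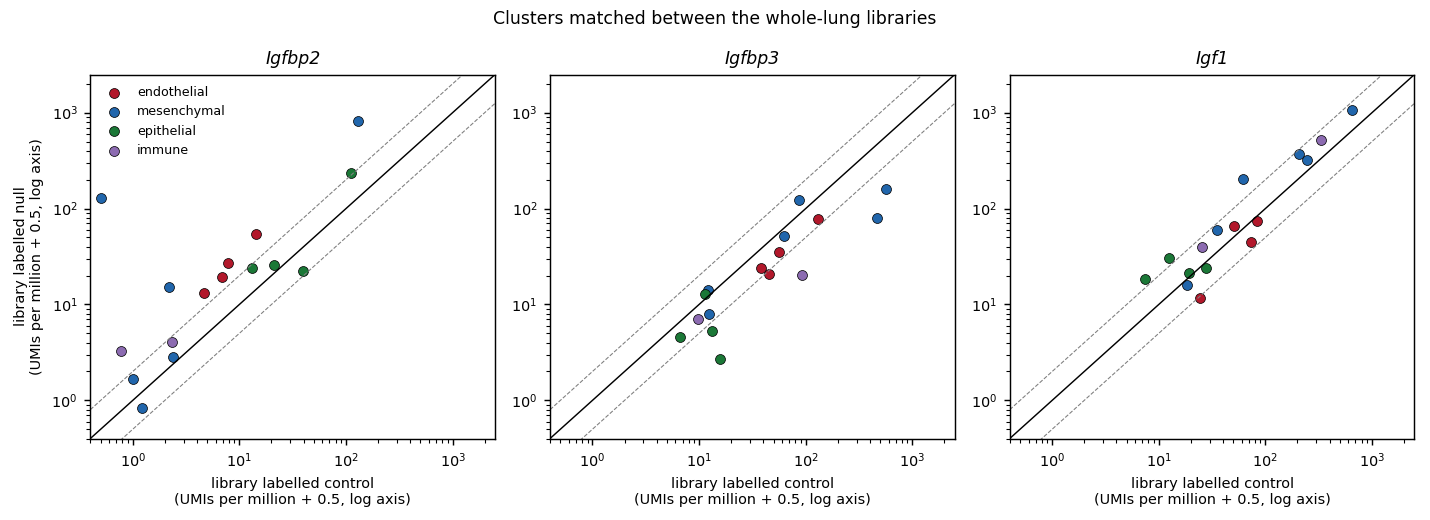
Levels of Igfbp2, Igfbp3 and Igf1 in the 16 matched clusters, in the library labelled control (x axis) and the library labelled null (y axis), as CPM plus 0.5 on log axes; points are pairs coloured by class, the solid line marks equal levels and the dashed lines 2-fold. The Igfbp2 point furthest from the line on the upper right is the pair at 129 and 810.4, and the 2 Igfbp3 points with the highest levels, at 565 and 160.2 and at 466 and 79.3, lie below the lower dashed line.

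Of 40 other genes of the pathway (IGF proteases and partners, imprinted or RNA-binding partners of Igf2, adaptors and the PI3K arm), 1 of 24 that could be compared was called higher and 1 lower from E13.5 to E15.5 in endothelial cells. These were the PI3K subunit Pik3cb (4.23 to 10.6 CPM) and H19, the imprinted non-coding neighbour of Igf2 (1499 to 693). From E15.5 to E18.5, 2 of 27 were higher, Stc1, which inhibits the IGFBP protease PAPP-A (8.11 to 35.2), and the protease Adamts1 (64.2 to 206), and 2 were lower, Igf2bp2 (20.6 to 6.54) and H19 (693 to 319). From E18.5 to P8, 0 of 26 were higher and 4 lower, led by Igf2bp1, an RNA-binding protein of fetal tissues (21.4 to 0.180), H19 (319 to 56.9) and the adaptor Grb10 (181 to 49.8). H19 was thus called lower at each step. Of all genes compared, 2.93% were higher and 3.54% lower in the first step, 9.19% and 4.71% in the second and 4.26% and 4.07% in the last, so the counts of higher genes in the first steps lie near the background. The median log2 ratios over the pathway genes compared were 0.45 and -0.23 in the last 2 steps, beside 0.19 and 0.03 over all genes compared.

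In sorted mesenchyme from E13.5 to E15.5, 3 of 31 pathway genes were higher, led by the protease Htra1 (19.3 to 236), and 2 lower, Pappa, the protease that cuts IGFBP4 (28.5 to 9.65), and Igf2bp1 (62.7 to 23.1). The other 2 that were higher were Grb14 (12.1 to 27.9) and Adamts1 (78.4 to 173), against a background of 6.88% higher and 4.27% lower. Between classes, 8 of 28, 11 of 31, 14 of 33 and 13 of 33 were higher in mesenchyme in the order of libraries above, and 4, 3, 3 and 3 higher in endothelial cells, where 12.7%, 14.3%, 16.5% and 15.6% of all genes compared were higher in mesenchyme and 12.1%, 11.3%, 14.8% and 14.8% in endothelium. The receptor Lrp1 (109, 126, 283 and 247 in mesenchyme, 4.23, 0.605, 3.59 and 3.57 in endothelial cells) and the adaptor Irs2 (18.4, 17.6, 72.7 and 67.9 against 0, 0.105, 1.51 and 2.33) were among those higher in mesenchyme in all 4. The transcription factor Foxo1 (53.3, 54.2, 76.4 and 80.4 in endothelial cells, 9.76, 16.3, 24.6 and 23.1 in mesenchyme) and the adaptor Grb14 (35.5, 60.4, 36.8 and 57.4 against 12.1, 27.9, 4.25 and 4.71) were on the endothelial side in all 4. Between the whole-lung libraries, Htra1 was called in endothelial cells (35.6 labelled null and 13.7 labelled control), Stc2 (24.99 and 10.7) and Stc1 (18.6 and 47.2) in mesenchyme, H19 in immune cells (19.5 and 9.33) and none in epithelium, that is 1 of 26, 2 of 31, 1 of 22 and 0 of 27, against the backgrounds given above for these classes. The mesenchymal Stc2 and Stc1 levels go with clusters of unequal size. The Col7a1 cluster (14.7% of mesenchymal cells) gave 76.0% of Stc2 UMIs in the library labelled null, and its match (8.09%) gave 56.7% in the other. The Cpne7 clusters gave 30.5% of Stc1 UMIs with 5.66% of the cells (labelled null) and 50.9% with 15.9% (labelled control). Levels within the clusters differed too, with Stc2 at 132 and 75.1 CPM in the Col7a1 pair, and Stc1 at 90.6 and 148 in the Cpne7 and 42.0 and 75.3 in the Lnx1 pair. The part of cluster size in the class differences was not tested.

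The genes whose levels were most like those of each member were read over the 41 clusters of at least 50 cells in the whole lungs, as Pearson's r of log2 levels. These clusters share libraries and cell types, so r is a description. Igf2r was most like Airn, its antisense neighbour (r = 0.93), and Igf2 most like H19 (0.86). Igfbp6 was most like Efemp1 (0.92), Pdpn and Aqp5, Igf1r like Atxn7l3b (0.92), Ttc3 and Stx16, and Igfbp4 like Fat4 (0.91), Add1 and Pkd1. Igfbp7 was most like Sparc (0.88), Cavin1 and Dlc1, Igf1 like Tgfbr3 (0.87), Sorcs1 and Scara5, Igfbp3 like Sncaip (0.82), Sntb2 and Nfib, and Igfbp5 like Id4 (0.82), Khdrbs3 and Cdon. Igfbp2 had no close match, with Mecom (0.70), Sostdc1 and Cd55 the nearest.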

How the data were processed

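Mouse lung cells were measured by droplet 3′ single-cell RNA sequencing. The authors ran Cell Ranger on mm10 (version 3.1 by the submitters' notes; headers of the matrices name 3.0.2 for the 3 later sorted libraries and 3.1.0 otherwise) and deposited raw counts of UMIs per gene and cell. SoupX-adjusted values of both whole-lung libraries were deposited too, which are estimated counts after removal of free RNA; these were used for the cell filter and as an alternative. Seurat 3.2.2 was used by the authors and not here. Of 31053 feature IDs, 30934 were found in GENCODE vM21.

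Cells were kept at 0.5% to 10% mitochondrial UMIs and at least 700 genes. Cells meeting more than 1 class rule (39 to 683 per library) were set aside, and no doublet caller was run. UMIs were summed per class and library and divided by the class total. Clustering was by Louvain at resolution 0.8 in each library alone (python-igraph 0.11.9, scikit-learn 1.9.0, 20 neighbours, 3000 variable genes). Named genes were all 10 members, up to 3 called pathway genes per direction and comparison, and the 3 genes most like each member. Population levels were limited to cells of 1 class after clusters with many cells of several classes had been seen. Members and lists were chosen with earlier results of these data known. Call functions were tested on simulated data. Intervals came from scipy 1.17.1 (Python 3.11.15).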

Additional observations from a re-analysis of the deposited data

Results flagged for a closer look

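The ratio of mesenchymal to endothelial level went past 2-fold in opposite directions in different libraries for 2 members. For Igfbp2 the log2 ratio was -1.40 in the E13.5 sort and 2.26 in the whole lungs labelled null. For Igfbp3 it was -1.45 in the E15.5 sort and 1.71 in the whole lungs labelled control. The differences were not tested, since each is 1 library, and age, gate and library cannot be told apart. The Igfbp2 value in the whole lungs labelled null was -1.24 without the Col7a1 cluster. That cluster was singled out for holding most mesenchymal Igfbp2 UMIs, so a fall was fixed by the choice.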

How the results depend on the processing

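No paired analysis was possible because each group is 1 library. Of 143 recomputed counts, 133 were within 1.5 times the reported count. From E13.5 to E15.5 in endothelial cells, 4 members rather than 2 were called when cells of several classes were assigned by priority, when marker limits were doubled and when classes came from clusters. Of all genes compared, 7.15%, 6.79% and 7.36% were called under these choices. From E18.5 to P8, 8 rather than 5 were called with no minimum level, against 8.03% of all genes compared. Between whole-lung libraries, 1 rather than 0 was called in epithelium with thinned cells (7.64% of all genes compared) and 1 with SoupX-adjusted counts (9.99%). In immune cells 1 was called by priority (1.38%), 2 with cluster classes (1.75%) and 2 with no minimum (2.88%). Leaving out the Col7a1 cluster, a choice made after seeing the data, turned the mesenchymal Igfbp2 ratio between whole-lung libraries to -0.061 and that of mesenchyme over endothelium to -1.24. Leaving out both matched clusters gave 4 mesenchymal calls rather than 2, against 1.29% of all genes compared, with Igfbp5 (1.24) and Igfbp6 (2.18) added. The 2 clusters need not be the same cells. The library labelled null kept an adventitial fibroblast-like cluster, with 21.6% of its mesenchymal Igfbp6 UMIs, and the other library had none of that name. The Igfbp6 ratio was 0.57 in the main run. It was -1.08, a call the other way, without the Col7a1 cluster alone.

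Of 38 called ratios recomputed 443 times, 420 kept their call and its direction. The 2 Igfbp2 ratios without the Col7a1 cluster changed sign, that of mesenchyme over endothelium to a call on the endothelial side. Igf1 from E15.5 to E18.5 was at 0.41 by priority. Median-of-ratios scaling shifted all genes by 0.16 in that step and by -0.11 in the mesenchymal time step; it put endothelial Igfbp7 at 0.94, just under the limit, and took the share of called genes that were higher from 66.1% to 51.3% and from 61.7% to 72.0%. With SoupX-adjusted counts, 6.79%, 4.82%, 9.99% and 9.91% of all genes were called between the whole-lung libraries in endothelial, mesenchymal, epithelial and immune cells, far above the reported background. At clustering resolution 1.2, 59 rather than 57 populations were named and 20 of 409 levels moved over 1.5 times. The 166 endothelial cells at E13.5 limit the endothelial comparisons with that age.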
